A study of Ursus arctos with 12 samples.

Results

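The 9 laminin chains LAMA2, LAMA3, LAMA4, LAMA5, LAMB1, LAMB2, LAMB3, LAMC1 and LAMC3 were taken by gene symbol from the 30249 genes counted in brown bear muscle, and each was compared between hibernation and the active period. The muscle was the vastus lateralis, a thigh muscle, of 6 free-ranging Ursus arctos labelled as 2 to 3 years old. By the methods, each bear was biopsied in winter (February, hibernating) and captured again in summer of the same year (June, active), so there were 6 winter and 6 summer libraries, and the 2 seasons differ in everything that differs between those captures. Each library was poly-A RNA of a whole biopsy, which holds muscle fibres, capillaries, fibroblasts, nerve and satellite cells, so that fewer cells of a type and less RNA per cell cannot be told apart. The 9 chains were all among the 17290 genes with at least 30 reads over the 12 libraries.

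Laminins are secreted cross-shaped proteins built from one α, one β and one γ chain. They form a sheet in the basement membrane, the layer that wraps each muscle fibre, capillary and nerve, and bind that sheet to receptors on the cell surface. The α chain decides which receptors are bound. LAMA2 encodes the α chain of the muscle fibre, and its loss causes a congenital muscular dystrophy. LAMA4 and LAMA5 are the α chains of blood vessel walls, and LAMA5 is also found at the neuromuscular junction. LAMB1 is the widespread β chain, while LAMB2 is concentrated at the neuromuscular junction and in vessels. LAMC1 is the γ chain of nearly all laminins of muscle. LAMA3 and LAMB3 are best known from the laminin that anchors epithelia such as skin.

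In winter, LAMA4, LAMB1 and LAMC1 fell in 6 of 6 bears, to 33.3%, 38.4% and 51.0% of summer, and LAMA2 fell to 72.8%. LAMA3 rose to 163% of summer. Levels are CPM, the reads of a gene scaled to a common library size, after TMM scaling, edgeR's correction for differences in library composition. Seasons were compared with the quasi-likelihood test of edgeR, and p-values were adjusted by Benjamini-Hochberg over all 17290 genes. This is the source of every adjusted p unless another test is named, and a gene was called below 0.05. Of the 9 chains, 4 were called lower and 1 higher in this fit, which has season as its only term. When the bear entered as a replicate block, edgeR called 4 lower and 2 higher, and DESeq2 called 5 lower and 2 higher. Over all genes tested, 39.5% were called, 19.9% lower and 19.6% higher. At the study's stricter limits, an adjusted p below 0.01 with a fold change above 1.3 or below 0.77, LAMA4, LAMB1 and LAMC1 remained lower and 0 chains were higher, where 24.0% of all genes were within these limits, 12% lower and 12% higher. The median log2 fold change was −0.46 over the 9 chains and −0.0021 over all genes tested.

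**Figure D1:**
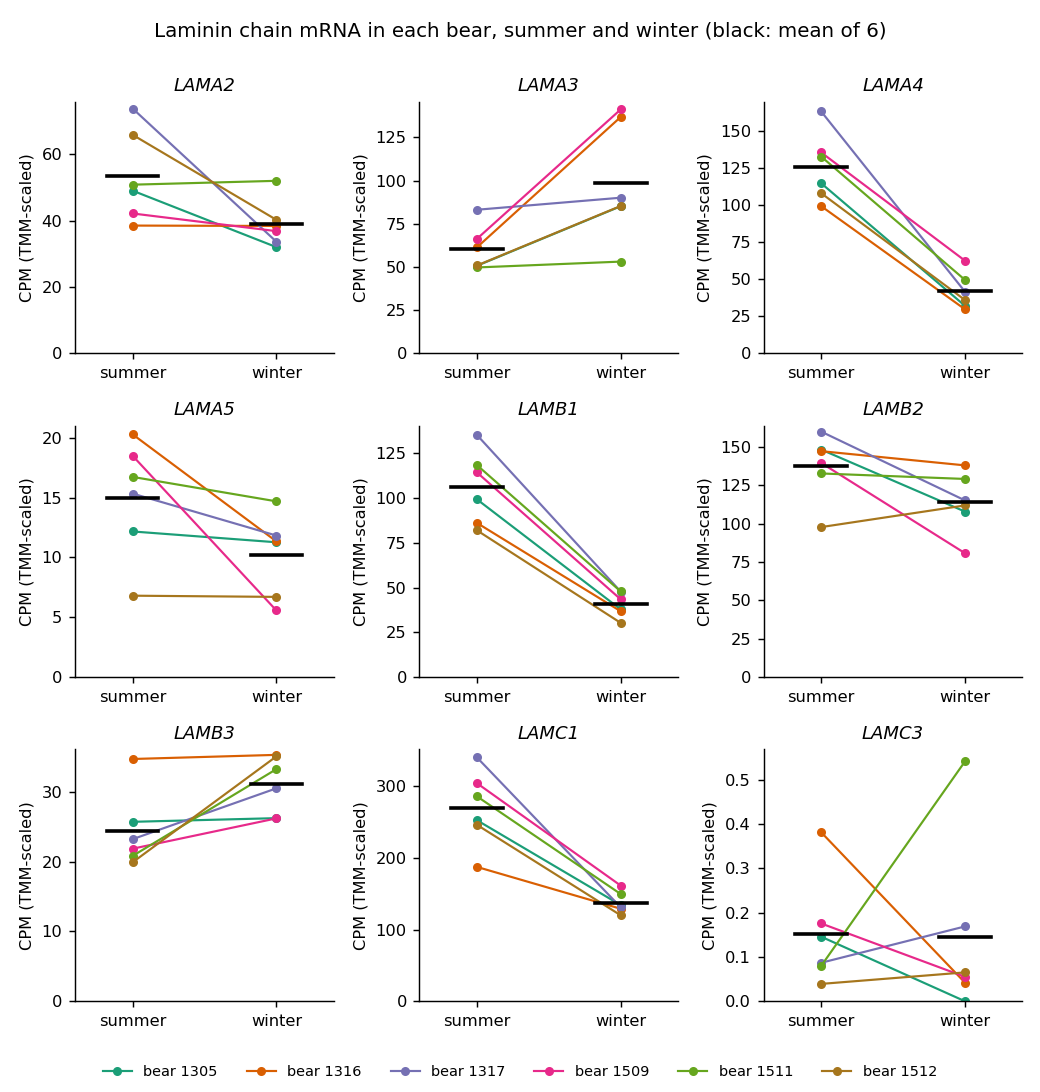
TMM-scaled CPM (vertical axes, starting at 0) of each laminin chain in summer and winter, with a coloured line per bear and a black bar at the mean of 6 bears. The lines of LAMA4, LAMB1 and LAMC1 all fall and their seasons do not overlap, those of LAMA3 all rise with seasons that overlap, and LAMC3 stays below 1 CPM.

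Between 20191068 and 27283155 reads were counted per library in summer and between 16742406 and 32140160 in winter. Together the 9 chains held 675 to 994 CPM in summer (median 780) and 465 to 558 CPM in winter (median 516), and the seasons did not overlap. This sum is weighted towards long and abundant chains. The winter library of bear 1509 stood apart on the second principal component of all genes, at −98.6 against 6.35 to 23.1 for the other winter libraries. The labels do not assign libraries to the sequencing lanes, and a lane effect was not tested. Transcript lengths of the build used for counting were not used here, so the levels of different chains are not ranked against each other.

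Among the α chains, LAMA4 showed the lowest log2 fold change. It was at 99.2 to 163 CPM in summer (median 124) and at 29.7 to 62.5 CPM in winter (median 38.8). The highest winter library, that of bear 1509, was below the lowest summer library. The mean fell from 125 ± 23.1 to 41.9 ± 12.4 CPM (SD, n = 6 bears). This was a log2 fold change of −1.58 ± 0.18 (SE), at an adjusted p of 3.47e-05. Single bears lay between −1.97 for bear 1317 and −1.12 for bear 1509.

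LAMA2, the α chain that links the fibre to dystroglycan and integrin, changed less. Its summer libraries were at 38.5 to 73.9 CPM (median 49.98) and its winter libraries at 32.0 to 52.0 CPM (median 37.6), so the seasons overlapped. The log2 fold change was −0.46 ± 0.17 (SE), at an adjusted p of 0.0409, and 5 of 6 bears were lower. Bear 1317 had the lowest difference at −1.13, and bear 1511 was at 0.033. The call for LAMA2 depended on single bears. Leaving out bear 1305, 1317, 1509 or 1512 gave adjusted p of 0.0915, 0.170, 0.0517 and 0.119. Without bear 1317 the log2 fold change was −0.30.

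LAMA5 lay lower in winter in 6 of 6 bears but was not called. It was at 6.81 to 20.3 CPM in summer (median 16.0) and at 5.57 to 14.7 CPM in winter (median 11.3), with widely overlapping seasons. Its log2 fold change was −0.55, with a 95% interval from −1.12 to 0.02 (adjusted p = 0.117). Bear 1509 alone was at −1.71, and without it the estimate was −0.34. When the bear entered as a replicate block, so that seasons are compared within each bear, DESeq2 called LAMA5 lower (adjusted p = 0.0422) and edgeR did not (0.0625), within 0.0422 to 0.333 over all alternatives.

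LAMA3 was the α chain that rose. It was at 49.7 to 83.1 CPM in summer (median 56.1) and at 53.1 to 141 CPM in winter (median 87.6). Winter values were highest in bears 1509 and 1316, at 141 and 137 CPM, and lowest in bear 1511, which overlapped with summer. The log2 fold change was 0.71 ± 0.21 (SE), at an adjusted p of 0.0175, and ranged from 0.095 in bear 1511 to 1.16 in bear 1316, with 6 of 6 bears higher. LAMA3 lost its call when library totals replaced TMM (adjusted p = 0.0505) and when bear 1305 (0.0509) or bear 1316 (0.0616) was left out. Its adjusted p over all alternatives spanned 0.000313 to 0.0616. RefSeq lists 4 transcripts of LAMA3 on the assembly UrsArc2.0, which is not the build used for counting, and counts per gene do not separate them.

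**Figure D2:**
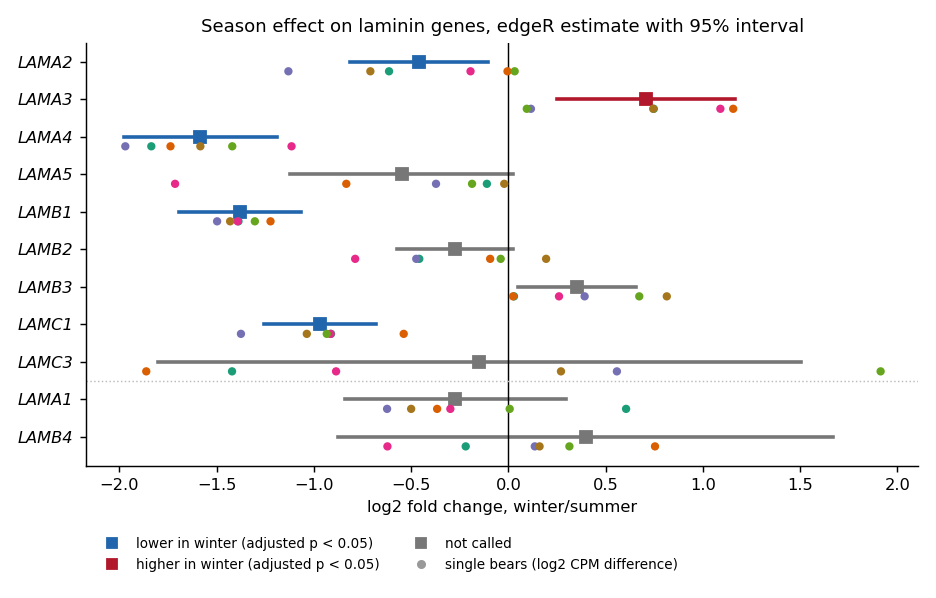
log2 fold change winter/summer of the 9 laminin chains and, below the dotted line, of LAMA1 and LAMB4. Squares are edgeR estimates with bars for their 95% intervals, coloured by call, and small dots are the log2 CPM differences of the 6 bears, coloured as in the plot of CPM by bear. Intervals of LAMA2, LAMA4, LAMB1 and LAMC1 lie below 0 and those of LAMA3 and LAMB3 above 0, although LAMB3 was not called after adjustment.

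Of the β chains, LAMB1 was the one that fell. It was at 82.0 to 135 CPM in summer (median 107) and at 30.3 to 47.9 CPM in winter (median 40.7), with no overlap between the seasons. Its log2 fold change was −1.38 ± 0.15 (SE), at an adjusted p of 2.10e-05, and single bears spanned −1.50 to −1.22.

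LAMB2 was at 97.8 to 160 CPM in summer (median 143) and at 80.8 to 138 CPM in winter (median 114). The seasons overlapped, with 5 of 6 bears lower and bear 1512 higher. The log2 fold change of −0.27 was not called, with a 95% interval from −0.57 to 0.02 and an adjusted p of 0.132 (0.0505 to 0.324 over the alternatives). Leaving out bear 1509, whose winter library stood apart, gave −0.18.

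LAMB3 was at 19.9 to 34.7 CPM in summer (median 22.5) and at 26.2 to 35.3 CPM in winter (median 31.9). The summer library of bear 1316 lay inside the winter range, whereas the other summer libraries lay below all of winter. The log2 fold change was 0.35, with a 95% interval from 0.05 to 0.66, and 6 of 6 bears were higher. Its adjusted p of 0.0618 missed the threshold. It became 0.0426 when the bear entered as a replicate block, 0.0440 in DESeq2, 0.0315 in DESeq2 with that block, 0.0446 in limma voom, 0.0499 with edgeR's own filter and 0.0151 without bear 1316. Over all alternatives it ran from 0.0151 to 0.204.

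For the γ chains, LAMC1 was at 187 to 340 CPM in summer (median 269) and at 120 to 161 CPM in winter (median 133). All winter libraries were below all summer libraries. The log2 fold change was −0.97 ± 0.13 (SE), at an adjusted p of 0.000115, and ranged from −1.38 in bear 1317 to −0.54 in bear 1316. LAMC3, a γ chain known from nerve, retina and brain surface, was close to absent, with 1 to 8 reads per library in summer and 0 to 9 in winter. Its log2 fold change of −0.15 had a 95% interval from −1.80 to 1.5, so that no seasonal difference was detectable at this depth (adjusted p = 0.892), and 3 of 6 bears were lower.

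The seasons did not overlap for 3 of the 9 chains, each lower in winter, where 8.21% of all genes tested were lower and 9.12% higher without overlap. In 6 of 6 bears, 4 chains were lower and 2 were higher, against 19.0% and 18.4% of all genes. LAMA4, LAMB1 and LAMC1 were called lower in each of the 14 alternatives, whichever bear was left out, with adjusted p of at most 0.000445, 0.000358 and 0.00118.

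LAMA1 and LAMB4, which are outside the 9 chains, were scarce. LAMA1 had 22 to 81 reads per library and a log2 fold change of −0.27 (95% interval −0.84 to 0.29, adjusted p = 0.434). LAMB4 had 1 to 11 reads and 0.40 (−0.87 to 1.67, adjusted p = 0.621). LAMA1 was at −0.42 without bear 1305 and −0.17 without bear 1317, and LAMB4 at 0.62 without bear 1509. In UrsArc2.0, LAMB4 lies beside LAMB1. Of these neighbours, LAMB1 was called and LAMB4 was not, and the difference between them was not tested.

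Chains of one class take the same place in the trimer, so their proportions were compared within each library. LAMA2 was also compared with LAMC1, a chain of another class that takes a different place. Such a ratio of reads needs no scaling between libraries, and gene length cancels between seasons. Differences between winter and summer were tested by a two-sided exact permutation test over the 12 libraries, with Benjamini-Hochberg adjustment over the 6 ratios computed. It does not use the pairing of the libraries by bear. The smallest p this test can give is 0.00216.

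Among the reads of the 4 α chains, the share of LAMA4 went from a median of 49.6% in summer to 22.4% in winter, that of LAMA3 from 23.6% to 51.9%, and that of LAMA2 from 21.0% to 19.5%. These shares also depend on chain length, they were not tested, and no ratio with LAMA3 was computed. LAMA4 lost ground against LAMA2. There were 1.64 to 3.21 LAMA4 reads per LAMA2 read in summer (median 2.45) and 0.773 to 1.69 in winter (median 0.975). The highest winter ratio, in bear 1509, was just above the lowest summer ratio, in bear 1512. On the log2 scale the ratio dropped by 1.17, from 1.25 ± 0.32 to 0.076 ± 0.40 (SD, n = 6 bears, exact permutation p = 0.00433, adjusted p = 0.013), and 6 of 6 bears were lower.

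LAMB2 gained on LAMB1. Reads of LAMB2 per read of LAMB1 numbered 1.12 to 1.71 in summer (median 1.21) and 1.86 to 3.74 in winter (median 2.77), with no overlap. The log2 ratio was higher by 1.10 in winter (exact permutation p = 0.00216, the smallest possible, adjusted p = 0.013, n = 6 bears), and 6 of 6 bears rose, by 0.61 to 1.63. In this unpaired test, the ratios of LAMA4 to LAMA2 and LAMB2 to LAMB1 passed the threshold whichever bear was left out (adjusted p at most 0.0476 for both). A sign-flip test that keeps the pairs gave an adjusted p of 0.0625 for both.

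The ratio of LAMA2 to LAMC1 was higher in winter by 0.51 on the log2 scale (exact permutation p = 0.013, adjusted p = 0.026, n = 6 bears) and rose in 6 of 6 bears, from a median of 0.200 to 0.277 LAMA2 reads per LAMC1 read. Leaving out bear 1316, 1317 or 1511 gave adjusted p of 0.0714, 0.0635 and 0.0952. LAMA5 gained on LAMA4 by 1.07 on the log2 scale in 5 of 6 bears (exact permutation p = 0.0325, adjusted p = 0.0487, n = 6 bears). This call was lost without bear 1305 (adjusted p = 0.155), 1316 (0.0714), 1317 (0.131), 1511 (0.119) or 1512 (0.107). Bear 1509 moved the other way, by −0.61.

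LAMA5 relative to LAMA2 differed by −0.10 on the log2 scale (exact permutation p = 0.801, adjusted p = 0.801, n = 6 bears), with 3 of 6 bears in each direction. LAMC3 relative to LAMC1 differed by 0.44 (exact permutation p = 0.591, adjusted p = 0.709, n = 6 bears), on 0 to 9 LAMC3 reads. A sign-flip test within bears gave an adjusted p of 0.0625 for the ratios of LAMA4 to LAMA2, LAMB2 to LAMB1 and LAMA2 to LAMC1, and 0.0938 for LAMA5 to LAMA4. With 6 bears that test cannot go below 0.0312 before adjustment.

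**Figure D3:**
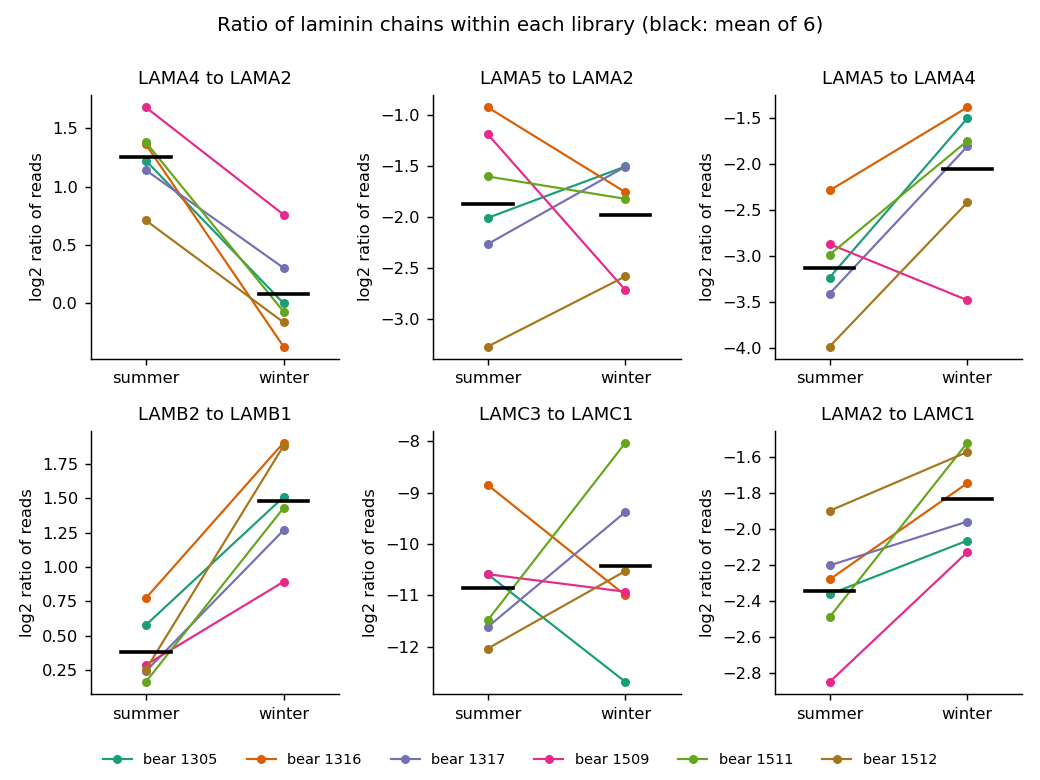
log2 ratio of the reads of 2 laminin chains within a library (vertical axes, each with its own range) in summer and winter, with a coloured line per bear and a black bar at the mean of 6 bears. LAMA4 to LAMA2 falls in every bear by between −0.84 and −1.74, LAMB2 to LAMB1 and LAMA2 to LAMC1 rise in every bear, and the lines of LAMA5 to LAMA2 and LAMC3 to LAMC1 cross.

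Laminin sheets are tied to the collagen IV network by nidogens, perlecan (HSPG2) and agrin (AGRN). A wider list of 18 basement membrane genes held NID1, NID2, HSPG2, AGRN, COL4A1 to COL4A6, COL15A1, COL18A1, FBLN1, FBLN2, SMOC1, SMOC2, NTN1 and NTN4. Of these, 16 were lower in winter and 0 higher (17 lower and 0 higher at an unadjusted p below 0.05, and 0 higher in DESeq2 and limma voom). The 6 collagen IV chains were all among those lower. Over the 18 genes the median log2 fold change was −1.38, and 88.9% were called lower, against 19.9% of all genes tested. NID1, the nidogen that binds the γ chain, fell from a median of 120 to 41.2 CPM (log2 fold change −1.51 ± 0.21 SE, adjusted p = 0.000137). HSPG2 fell from 178 to 37.2 CPM (−2.0 ± 0.31 SE, adjusted p = 0.000277), and AGRN, which joins laminin to dystroglycan and clusters acetylcholine receptors, from 18.01 to 6.61 CPM (−1.40 ± 0.21 SE, adjusted p = 0.000173). The collagen IV chains COL4A6, with 3 to 87 reads per library, and COL4A1 had the lowest values, −3.20 (adjusted p = 2.32e-05) and −2.97 (adjusted p = 1.49e-05). These 5 genes were lower in 6 of 6 bears.

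Of the laminin receptors, 14 of the 15 listed were matched by symbol, and 6 were lower and 1 higher, with a median log2 fold change of −0.31. Lower calls made up 42.9% and higher calls 7.14%, against 19.9% and 19.6% of all genes tested. DAG1, which encodes dystroglycan, the receptor that holds the LAMA2 chain to the fibre, was at a median of 169 CPM in summer and 179 CPM in winter. Its log2 fold change was −0.019, with a 95% interval from −0.31 to 0.27 (adjusted p = 0.921). ITGB1, the β subunit of most laminin-binding integrins, fell by 0.54 on the log2 scale (SE 0.11, adjusted p = 0.00123) in 6 of 6 bears. ITGA7, its partner in muscle fibres, was lower in 5 of 6 bears at −0.42 and missed the threshold (adjusted p = 0.0513). It passed when the bear entered as a replicate block (0.0470), in DESeq2 (0.0418) and DESeq2 with that block (0.0270), under library totals (0.0212) or edgeR's own filter (0.0498), and when bear 1512 was left out (0.0259). The alternatives spanned 0.0212 to 0.132. SDC1 and ITGA2 had the lowest values, −2.58 (adjusted p = 0.00174) and −1.90 (adjusted p = 0.00169), on at most 93 and 140 reads per library. SDC1 is a heparan sulphate proteoglycan, and ITGA2 is better known as a collagen receptor subunit. The receptor that rose was RPSA, at 0.36 (adjusted p = 0.0263), whose product is mainly a ribosomal protein. RPSA lost its call under library totals (adjusted p = 0.0692) and when bear 1305 (0.0905), 1317 (0.0646), 1509 (0.0544) or 1512 (0.0566) was left out.

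Dystroglycan binds laminin only through a sugar chain. Of 19 genes that build this chain or supply its donors, 2 were higher, 5 lower and 12 not called. Called higher were thus 10.5% and lower 26.3%, against 19.6% and 19.9% of all genes tested. The median log2 fold change of the 19 genes was −0.14. GMPPB, which makes GDP-mannose, and POMK, a kinase of the core sugar, had the lowest values, −1.16 (adjusted p = 0.00103) and −0.78 (adjusted p = 0.00207). DPM2, a subunit of dolichol phosphate mannose synthase, at 0.82 (adjusted p = 0.00897), and ISPD, which makes CDP-ribitol, at 0.60 (adjusted p = 0.014), were higher, each in 5 of 6 bears. ISPD missed the threshold under library totals, at an adjusted p of 0.0591, the highest of its alternatives (lowest 0.00323).

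Of 14 genes of the dystrophin complex that joins dystroglycan to the cytoskeleton, 3 were higher and 4 lower, with a median log2 fold change of 0.082. These were 21.4% and 28.6%, where 19.6% of all genes tested were called higher and 19.9% lower. CAV3, the caveolin of muscle fibres, was at 0.81 (adjusted p = 0.0032) and SGCA, α-sarcoglycan, at 1.09 (adjusted p = 0.0234). The call of SGCA was lost when bear 1305 (adjusted p = 0.0636), 1317 (0.0768) or 1511 (0.0718) was left out. SGCE and DTNA, ε-sarcoglycan and α-dystrobrevin, had log2 fold changes of −0.79 (adjusted p = 0.0056) and −0.60 (adjusted p = 0.00339), and 6 of 6 bears were lower for each.

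**Figure D4:**
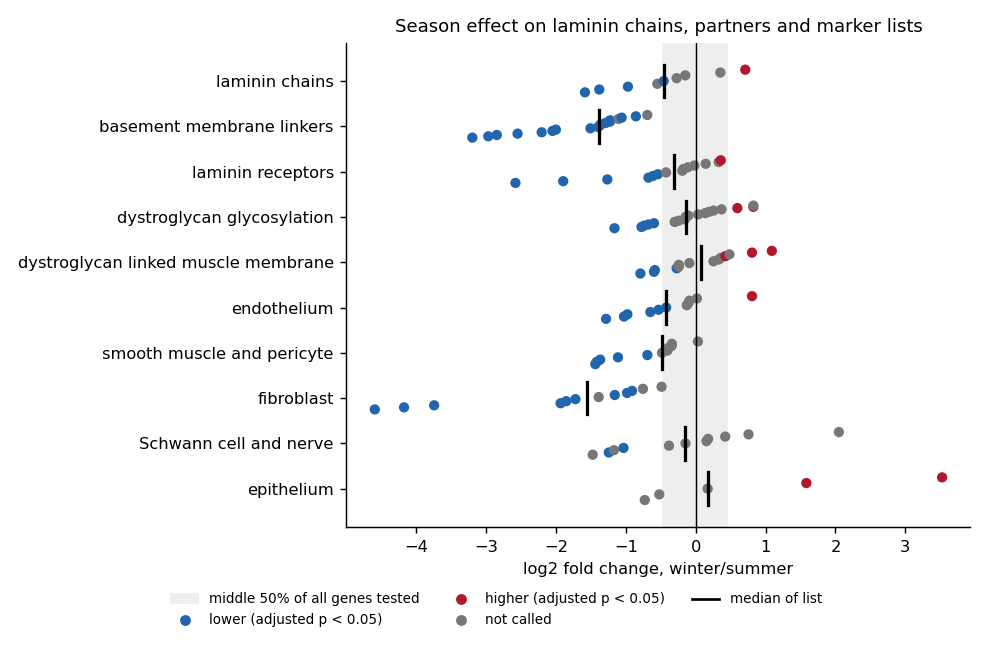
log2 fold change winter/summer (horizontal axis) of every tested gene of the laminin, partner and cell type lists, a dot per gene coloured by call, with a black bar at the median of each list and a grey band over the middle 50% of all genes tested. The genes labelled basement membrane linkers, which include collagen chains, all lie to the left of the band around a median of −1.38. The glycosylation and muscle membrane genes are spread on both sides of 0.

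Markers of the cells that make these chains were compared beside them. For comparison, 19.9% of all genes tested were called lower and 19.6% higher in winter. Of 11 tested endothelial markers, 6 were lower and 1 higher in winter, with a summed level of 740 to 1073 CPM in summer and 539 to 603 CPM in winter. Of 11 smooth muscle and pericyte markers, 5 were lower and 0 higher (8 and 0 at an unadjusted p below 0.05, 0 higher in DESeq2 and limma voom), with 716 to 885 and 482 to 583 CPM. Of 12 fibroblast markers, among which the list counts collagens I and III, 9 were lower and 0 higher (12 and 0 at an unadjusted p below 0.05, 0 higher in DESeq2 and limma voom), with 5079 to 12562 and 536 to 2805 CPM. That sum is weighted towards COL1A1, COL1A2 and COL3A1. Their medians were 1264, 1797 and 3608 CPM in summer and 24.9, 81.1 and 56.2 CPM in winter. PDGFRA (log2 fold change −0.49, adjusted p = 0.0772), DCN (−0.75, adjusted p = 0.0848) and FBN1 (−1.39, adjusted p = 0.0606) were not called. The endothelial markers moved unevenly beside LAMA4. Those called lower were VWF (log2 fold change −1.28), CDH5 (−1.03), KDR (−0.98), EMCN (−0.65), TIE1 (−0.53) and PECAM1 (−0.42), and CLDN5, a tight junction protein, was called higher (0.81, adjusted p = 0.0295). FLT1, TEK, ESAM and ROBO4 were not called and lay between −0.13 and 0.017. Of 11 Schwann cell and nerve markers, 2 were lower and 0 higher (2 and 0 at an unadjusted p below 0.05), with 102 to 158 CPM in summer and 94.7 to 236 CPM in winter. The part of these cells in the changes of the laminin chains was not tested.

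Markers of epithelium, the tissue best known for LAMA3 and LAMB3, were uneven. Of 10 that were matched by symbol, 5 had at most 3 reads in any library, among them KRT5 (0 to 1 read), KRT8 and KRT18. The 5 that were tested summed to 3.05 to 10.03 CPM in summer and 7.28 to 26.2 CPM in winter. Among them, TP63 and PKP1 were called higher, which is 40% of those tested, against 19.6% of all genes. TP63, a transcription factor of basal epithelium with 50 to 592 reads per library, had a log2 fold change of 1.58 (adjusted p = 0.00755). TP63 alone was at a median of 3.11 CPM in summer and 8.68 CPM in winter. PKP1 had 0 to 12 reads. EPCAM (log2 fold change −0.52), CDH1 (−0.73) and DSP (0.17) were not called. The part of these markers in the results for LAMA3 and LAMB3 was not tested.

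LAMA2 and LAMC1 had different neighbours in expression. Over the 12 libraries, the genes whose log2 CPM was most like that of LAMC1 among 10344 compared were FRAS1 (Pearson r = 0.981), another basement membrane protein, COL6A3 (0.977), HDLBP (0.973), SRGAP2 (0.973) and ITM2A (0.972). These 5 were all called lower, with log2 fold changes from −2.32 to −0.70, so that the season is part of each r. Within summer alone they had r of 0.866 to 0.959 and within winter alone 0.662 to 0.972, over 6 libraries each. LAMA4 and LAMB1 came at ranks 13 and 14 (0.965 and 0.965), and LAMA2 at rank 1812 (0.713). The genes most like LAMA2 were MRPS27, a mitochondrial ribosomal protein, at 0.931, MANBA, a lysosomal mannosidase, at 0.919, PDPR at 0.915, FAT4 at 0.911 and GATB at 0.908. Their log2 fold changes lay between −0.52 and −0.16, and their r within summer was 0.858 to 0.973 and within winter 0.739 to 0.872. Without bear 1317, PDPR was at −0.068 and GATB at −0.22, and neither was called with or without that bear. Of these, MRPS27 (adjusted p = 0.0114) and MANBA (adjusted p = 0.0382) were called. MANBA was not called without bear 1305 (0.0969), 1317 (0.153) or 1512 (0.0960), nor MRPS27 without bear 1317 (0.0535). These correlations are descriptions, and the libraries compared share depth, season and bear.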

How the data were processed

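The deposited values are counts of reads per gene, whole numbers that the authors neither normalized nor filtered. By the methods and the submitters' processing notes, the authors made stranded poly-A libraries, aligned single reads to ASM358476v1 with TopHat2 2.1.1, discarded alignments with more than 3 mismatches and counted reads strand-specifically per gene with featureCounts 1.6.2. Seasons came from the labels, bears from the sample titles.

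Genes needed 30 reads summed over all 12 libraries. After TMM scaling, a model with season alone was fitted in edgeR 4.0.16 (glmQLFit, glmQLFTest; R 4.3.3). Standard errors were computed from the fold change and the test statistic. Log2 CPM used a prior count of 2, and chain ratios a pseudocount of 0.5. The alternatives were the bear as a replicate block, DESeq2 1.42.0, limma voom 3.58.1, other scalings, filters and limits, and each bear left out. The bear pairs the samples because the same animals were captured in both seasons. Deviations from season means correlated at 0.0903 to 0.344 within bears. Between bears the median was −0.0634 and the highest 0.142, so the 2 ranges overlap. Named genes were the chains, NID1, HSPG2, AGRN, DAG1, ITGA7 and ITGB1, the 2 lowest and 2 highest called genes of each partner list, and the 5 genes most correlated with LAMA2 and with LAMC1 that had a symbol and a mean of at least 1 log2 CPM. Marker genes were written out beside the results. Some genes are not reported here. The members and lists were chosen with earlier results of these data known. On simulated data of 17290 genes for winter against summer, edgeR found 46% of the genes given a 2-fold change and 100% of those given a 4-fold change. Only well-counted genes were given a change, with the same variability for every gene and no difference between bears. These shares therefore do not describe scarce chains such as LAMC3 and LAMB4, or genes with another variability. P-values rest on 6 bears, and lower depth widens the intervals of scarce chains.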

Additional observations from a re-analysis of the deposited data

How the results depend on the processing

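LAMA4, LAMB1 and LAMC1 kept their direction and call in 14 of 14 alternatives, and LAMB2 stayed uncalled in 14. Calls of 3 to 5 chains as lower were found throughout. Chains higher numbered 2 when the bear entered as a replicate block in edgeR and in DESeq2, and 2 in DESeq2 without it, limma voom and filterByExpr, 0 with library totals, 0 at the stricter limits, and 0 to 1 with a bear left out (0 without bear 1305). The log2 fold change of LAMA3 was 0.63 with library totals and 0.60 to 0.85 with a bear left out. That of LAMA2 was −0.57 to −0.30 with a bear left out. LAMB3 was called at 0.37 with the replicate block, 0.36 in DESeq2, 0.37 in DESeq2 with that block, 0.37 in limma voom and 0.36 with filterByExpr, and lay at 0.26 to 0.44 with a bear left out. LAMA5 was called only in DESeq2 with the replicate block, at −0.52. LAMC3 was at −0.33 to 0.11 with a bear left out, positive without bear 1305 (0.11) and without bear 1509 (0.032), and fell under the read filter without bear 1316 or 1511 and with filterByExpr, where it gave no value. The cause of these shifts was not tested.

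With the sign-flip replicate block the differences in log2 ratio cannot change, because every bear has both seasons. They were −1.17 for LAMA4 to LAMA2, 1.07 for LAMA5 to LAMA4, 1.10 for LAMB2 to LAMB1 and 0.51 for LAMA2 to LAMC1. In that test they missed the threshold, which 6 bears can pass only where most ratios reach the smallest p. With a bear left out these were −1.24 to −1.06, 0.94 to 1.41, 0.99 to 1.2 and 0.42 to 0.57. LAMA5 to LAMA2 was −0.28 to 0.18, positive without bear 1316 (0.041) and 1509 (0.18), and LAMC3 to LAMC1 was −0.17 to 0.95, negative without bear 1511 (−0.17).

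Receptors higher numbered 0 with library totals and at the stricter limits and 0 to 1 with a bear left out (0 without bear 1305, 1317, 1509 or 1512). Glycosylation genes higher numbered 1 with library totals and 1 at the stricter limits. Membrane genes higher numbered 1 at the stricter limits and 1 to 3 with a bear left out (1 without bear 1305), and those lower 2 and 2 to 5 (2 without bear 1305, 1317 or 1511). The replicate block changed no other call of a chain or ratio. For the 31 named genes that are no chains of the list, the same alternatives were added after seeing the data, and 23 kept call and direction in each. DAG1 was at −0.067 to 0.077 with a bear left out, positive without bear 1317 (0.00088) and 1509 (0.077). Library totals moved the median of all genes by −0.079, and no scaling moved it by more than 0.1. Depth limits LAMC3 and LAMB4, at 37 and 36 reads in all.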

Other observations

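Satellite cells, the stem cells of muscle, lie between the fibre and its laminin sheet. Of 6 of their markers, edgeR called 4 lower in winter and 0 higher (DESeq2 called 5 and 0, and 5 and 0 had an unadjusted p below 0.05), with a summed level of 20.4 to 35.5 CPM in summer and 7.31 to 12.7 CPM in winter. CHODL had a log2 fold change of −2.32 (adjusted p = 1.15e-05) and MYF5, an early myogenic factor, one of −2.04 (adjusted p = 0.000122), both lower in 6 of 6 bears. CHODL alone was at a median of 14.5 CPM in summer and 2.56 CPM in winter. PAX7, which defines these cells, had 10 to 60 reads per library and was at −0.81 (adjusted p = 0.0298). CALCR, the remaining gene that edgeR called lower, had 0 to 8 reads per library. VCAM1 (−0.56, adjusted p = 0.0627) and MYOD1 (−0.71, adjusted p = 0.271) were not called in edgeR. These genes were named after their values were seen. Of all genes tested, 19.9% were called lower and 19.6% higher. Of 12 listed markers of the fibre itself, 9 were matched by symbol, and MYH7, MYH2 and MYL1 were not. Of the 9 tested, 2 were higher and 3 lower. Their summed levels were 118524 to 195447 CPM in summer and 125750 to 167487 CPM in winter, which overlap.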
